A study of Mus musculus with 5 samples.

Results

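The comparison described here sets AxJ mouse plasma cells that overexpressed hnRNP-H against AxJ cells that carried the empty vector, on 1 expression array each. A probe set, the group of short probes that reads 1 transcript, was a member when its deposited intensity was at least 100 on either array and it was not one of the maker's controls. This gave 4504 members among 12422 probe sets (36.3%). Of these, 3726 reached 100 on both arrays, 408 on the hnRNP-H array alone and 370 on the empty-vector array alone. The border was densely filled: 220 members had a highest value between 100 and 110, and 238 probe sets just outside had one between 90 and 100. Exactly 1 gene symbol was attached to 4075 members, which stood for 3621 genes.

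The series holds 5 arrays of polyadenylated RNA: AxJ with empty vector, AxJ with hnRNP-H, subclones B5 and D6 of AxJ with hnRNP-F, and A20, which the labels call a memory B cell line. All AxJ lines were stable transfectants grown under G418, the drug that selects for the vector, so the empty-vector control carried both the vector and the drug, while A20 was grown without it. Clones were picked for high protein overexpression on western blots, and the hnRNP-H line was 1 clone. Per the series' design text, the hnRNP-H line, the empty-vector line and A20 served as controls for the hnRNP-F clones, whose ratio of secreted to membrane immunoglobulin heavy chain mRNA was lower. No line was measured again, so a difference between the arrays cannot be told apart from a difference between the clones, the RNA preparations or the hybridisations. All ratios are therefore fold values without a test.

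hnRNP-H and hnRNP-F are closely related RNA-binding proteins that bind runs of G in pre-mRNA. They act on splicing and on cleavage and polyadenylation. In B-lineage cells the heavy chain transcript can end at an early secretory poly(A) site or at a later membrane site, and plasma cells use mainly the early one. ELL2, a transcription elongation factor, favours the secretory site in plasma cells, and hnRNP-F is known to oppose its use.

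The labelled cell type was checked against marker genes. Secreting-cell transcripts were bright on both arrays. Jchain, which links IgA and IgM into polymers, read 6085 with empty vector, 4830 with hnRNP-H, 4193 and 3901 in B5 and D6, and 1636 in A20. The IgA heavy chain Igha read 8345 with empty vector, 9534 with hnRNP-H, 10655 and 8922 in B5 and D6, and 55.1 in A20. All 4 AxJ arrays thus stood far above A20 for this chain. Sdc1, which encodes the plasma cell surface protein syndecan-1, stayed below the member limit, with at most 57.3 on the 2 arrays compared. Of the 17 plasma cell markers on the array, 7 reached 100 on each of the 2 arrays, close to the 6 in A20. The summed levels were 13323 for empty vector, 11809 for hnRNP-H and 3930 for A20. Of 37 B cell markers, 12 and 10 reached 100, with sums of 6638 and 6630, against 24 and a sum of 20819 in A20. No T or NK cell marker of 13 reached 100 on any of the 5 arrays. Of 12 myeloid markers, 1 reached 100 in empty vector and 2 in hnRNP-H, of 15 stromal markers 1 and 1, and of 7 erythroid markers 2 and 0. In such bulk RNA, fewer cells of a type and less RNA per cell cannot be told apart.

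The array's own controls separated the arrays before any other gene was considered. Gapdh and beta-actin are each read by probe sets at the 5' end, the middle and the 3' end of the transcript, and a low ratio of 5' to 3' signal accompanies shortened labelled RNA. At the 3' end of Gapdh the intensity was 7060 in empty vector and 7404 in hnRNP-H, a log2 difference of 0.07. In the middle it was 3192 against 6687, a difference of 1.07. At the 5' end it was 1500 against 6410, a difference of 2.10. The same transcript thus gave a difference near 0 or one past 4-fold according to where it was read. The 5' to 3' ratio of Gapdh was 0.212 with empty vector, 0.866 with hnRNP-H, 0.181 and 0.683 in B5 and D6, and 0.384 in A20. Beta-actin gave 0.247 with empty vector, 0.587 with hnRNP-H, 0.144 and 0.445 in B5 and D6, and 0.361 in A20. Both controls put empty vector with B5 on the low side and hnRNP-H with D6 on the high side. For beta-actin the log2 difference between hnRNP-H and empty vector was 1.88 at the 5' end, 1.64 in the middle and 0.63 at the 3' end. The 9 bacterial and phage hybridisation controls ran the other way, 1.62 to 2.0 times brighter in empty vector (median 1.81). How much of any member's difference goes with these ratios was not tested.

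**Figure D1:**
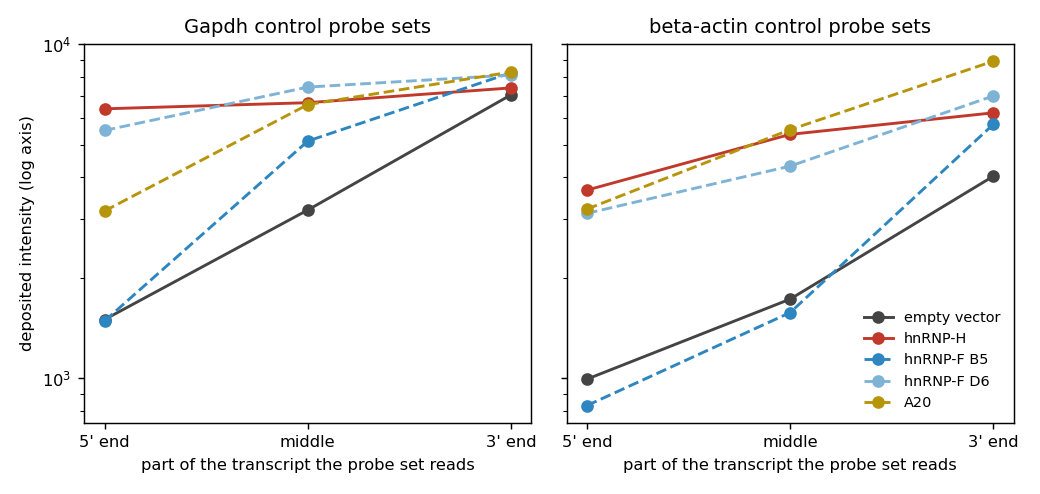
Deposited intensity (log axis) of the Gapdh and beta-actin control probe sets at the 5' end, the middle and the 3' end of the transcript, 1 point per array and 5 arrays. The lines for empty vector and B5 climb steeply from the 5' end to the 3' end, while those for hnRNP-H and D6 are flatter; for Gapdh all 5 arrays lie between 7060 and 8262 at the 3' end.

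Levels are deposited intensities, and a difference is log2 of hnRNP-H over empty vector after any value under 50 was raised to 50, so that dim probe sets do not set the size of a fold. On this scale 319 of the 4504 members (7.08%) were at least 2-fold higher in hnRNP-H and 188 (4.17%) at least 2-fold lower, 507 (11.3%) in all. The other 3997 lay within 2-fold. When the arrays were brought to equal medians instead, which moved the median of all members from 0.02 to 0.16, the split was 435 higher and 115 lower. With loess scaling it was 262 and 217, and with quantile normalisation 298 and 208. At least 4-fold were 13 members higher and 2 lower, and the largest ratio, 51.4 and 300.2, belonged to a member with several gene symbols. The middle of the distribution was close to 0: 2292 members lay above 0 and 2212 below, the quartiles were -0.39 and 0.44, and the SD over members was 0.63. The balance of the calls depended on brightness. Among 566 members with a mean of at least 1000, 13 were 2-fold higher and 32 lower, with a median of -0.15. Among 2105 members between 200 and 1000, 122 were higher and 60 lower. Among 1833 members between 50 and 200, 184 were higher and 96 lower, and the share past 2-fold was 15.3%, against 7.95% in the brightest class. Members had to reach the member limit on either array, so any member with a mean below it had its arrays on opposite sides. That choice favours large ratios in the dimmest class and does not act on the brightest, so these shares cannot show an effect of brightness.

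**Figure D2:**
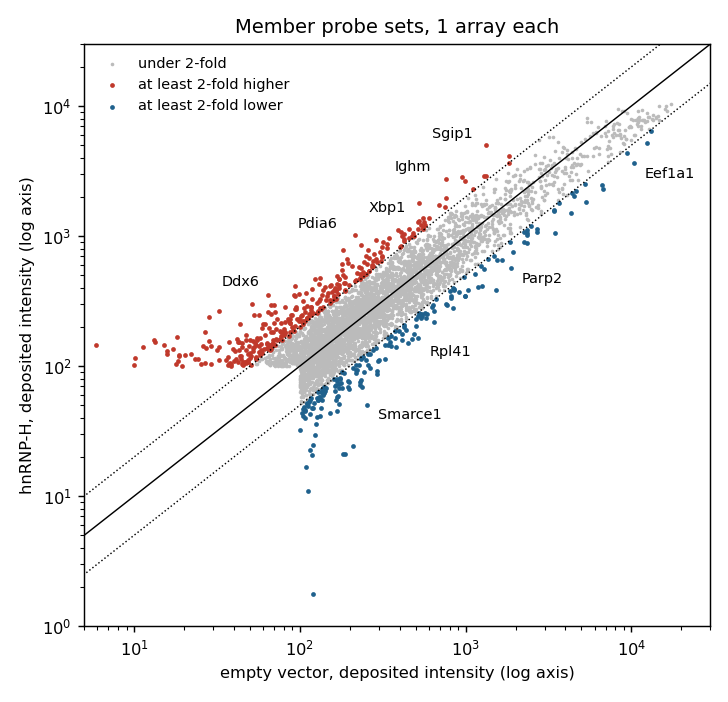
Deposited intensity in the empty-vector array (x, log axis) against the hnRNP-H array (y, log axis) for the 4504 members; the solid line marks equality, the dotted lines 2-fold, and coloured points are the 319 members at least 2-fold higher and the 188 at least 2-fold lower. The labelled genes are described in the text; the corner below 100 on both axes is empty because of how members were chosen.

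The transfected gene family came first. Hnrnph1, which encodes hnRNP-H itself, read 1487 with empty vector, 1056 with hnRNP-H, 725 and 970 in B5 and D6, and 1477 in A20. The hnRNP-H array was thus below the empty-vector array, with a log2 difference of -0.49. Whether this probe set lies in the transfected sequence is not known from the sources used here, so it checks neither the label nor the overexpression. Hnrnph3 read 149 and 134, a difference of -0.15. Grsf1, a related G-rich-sequence binder, read 275 and 337, a difference of 0.29. Hnrnph2 read 55.7 and 45.8 and was no member, and no probe set was named Hnrnpf. None of the 3 family members measured passed 2-fold.

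Among the immunoglobulin members, 1 difference passed 2-fold. The mu heavy chain Ighm read 757 with empty vector, 2769 with hnRNP-H, 1062 and 2711 in B5 and D6, and 6.48 in A20. The hnRNP-H and D6 arrays were the high ones, and the log2 difference between hnRNP-H and empty vector was 1.87. A further Ighm probe set, dim and no member, read 67.8 and 99.3, and the others were dimmer. Igha differed by 0.19 and Jchain by -0.33. Of the 9 immunoglobulin members, 1 was at least 2-fold higher, none lower, and the median difference was -0.23. Ell2 was lower in hnRNP-H at both of its member probe sets. Its brightest read 3865 with empty vector, 2096 with hnRNP-H, 1942 and 2068 in B5 and D6, and 993 in A20, a difference of -0.88. Here the empty-vector array alone was high among the AxJ arrays. A dimmer Ell2 probe set read 774 and 297, a difference of -1.38, and the remaining one, no member, read 69.3 and 66.7.

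Regulators of the plasma cell state differed in both directions. Xbp1, the transcription factor of the secretory program and the unfolded protein response, read 526 with empty vector, 1303 with hnRNP-H, 1157 and 1061 in B5 and D6, and 483 in A20. Empty vector was the low AxJ array, and the difference was 1.31. Irf4, a factor needed for plasma cells, read 933 with empty vector, 1500 with hnRNP-H, and 768 and 1308 in B5 and D6, a difference of 0.69 in which hnRNP-H sided with D6. Prdm1, which encodes the repressor Blimp-1, read 154 and 93.7, a difference of -0.71. Pim2, a survival kinase, read 58.1 with empty vector, 147 with hnRNP-H, and 120 and 246 in B5 and D6, a difference of 1.34.

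Among members read above 50 on both arrays, the largest ratio with a named gene was that of Ddx6, an RNA helicase of processing bodies. It read 64.3 with empty vector, 353 with hnRNP-H, and 204 and 87.5 in B5 and D6, a difference of 2.46. A second Ddx6 probe set gave 1.52 and another 0.58. Pdia6, a protein disulfide isomerase of the endoplasmic reticulum, read 216 with empty vector, 1014 with hnRNP-H, and 223 and 662 in B5 and D6, a difference of 2.23. Other Pdia6 probe sets gave 1.11 and -0.47. So for both genes the size, and for Pdia6 the direction, depended on the probe set. The catalytic subunit gene of casein kinase 2, Csnk2a1, read 52.8 and 245 (2.22), while its other member probe sets gave -0.40 and -0.08. The calcineurin subunit gene Ppp3r1 read 56.3 and 249 (2.14). Ube2s, a ubiquitin-conjugating enzyme that works with the anaphase-promoting complex, read 183 with empty vector, 786 with hnRNP-H, and 629 and 563 in B5 and D6. For Ube2s the empty-vector array was the low one and the 3 others lay close together. Bcl2l11, which encodes the death-promoting protein BIM, gave 2.08 at one probe set and 0.81 at a brighter one. The remaining highest genes were Zfp740 (2.13), Hoxa4 (2.13), Dpp3 (2.03), Cdkn2a (1.94), Abcf2 (1.93), Sgip1 (1.91), Kmt5c (1.90), Gpn2 (1.90) and Map2k3 (1.89).

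On the low side, Smarce1, a subunit of SWI/SNF chromatin remodelling complexes, read 255 with empty vector, 50.2 with hnRNP-H, and 61.5 and 37.8 in B5 and D6, a difference of -2.34. Parp2, a DNA-damage poly(ADP-ribose) polymerase, read 1867 with empty vector, 563 with hnRNP-H, and 542 and 611 in B5 and D6, a difference of -1.73. In both cases the empty-vector array stood alone above the other AxJ arrays. The nucleosome-binding gene Hmgn5 differed by -1.98, with 1520 with empty vector, 385 with hnRNP-H, and 177 and 697 in B5 and D6. Its levels were spread over all 4 arrays, and B5, not hnRNP-H, was lowest. The transcription factor gene Yy1 read 294 and 91.9 (-1.68), and the cargo receptor gene Tmed7 read 1254 and 414 (-1.60). A probe set of the class I histocompatibility gene H2-D1 read 3457 and 1056 (-1.71), while the brightest H2-D1 probe set read 7022 and 5878 (-0.26) and another 1038 and 1945 (0.91). Plk1, a mitotic kinase, gave -1.59 at one probe set and 0.54 and 0.43 at its others. The rest of the lowest genes were Sac3d1 (-1.78), Cradd (-1.76), Olfr94 (-1.74), Pip4p2 (-1.70), Rpl41 (-1.66), Sart3 (-1.61), Paxbp1 (-1.57) and Macroh2a1 (-1.57).

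Of the members, 100 had a value under 50 on one array, 72 in empty vector and 28 in hnRNP-H. For these the ratio to the floor of 50 gives a lower bound. Eif4ebp2, an inhibitor of cap-dependent translation, read 32.4 and 264, at least 5.29-fold higher in hnRNP-H. The small GTPase gene Rhog read 28.3 and 238, at least 4.76-fold higher. Tbl3 was at least 4.19-fold higher, Prrg2 3.64-fold, Samd4b 3.47-fold, the tumour suppressor gene Men1 3.36-fold, the mitochondrial transporter gene Abcb8 3.21-fold and Agap3 3.18-fold. In the other direction the kinesin gene Kifc1 read 210 and 24.3, at least 4.21-fold higher in empty vector. Prp2 (188 and 21.0) was at least 3.77-fold higher in empty vector and Gata4 (182 and 21.2) at least 3.63-fold, followed by Cenpk, Mmut, Taf1d, Mbd2 and Lep with bounds between 2.55 and 3.34.

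All of these differences were read against the other AxJ arrays. The hnRNP-H array stood at least 2-fold beyond all 3 other AxJ arrays for 14 of the 4504 members, 8 above and 6 below. The empty-vector array stood apart in this way for 189 members. In 121 of them it was lowest, which is 37.9% of the members higher in hnRNP-H, and in 68 it was highest, which is 36.2% of those lower. A further 23 members had hnRNP-H and D6 both at least 2-fold above empty vector and B5, 2 of them shared with the 121, and 2 members had both below. Left over were 169 of the higher and 112 of the lower members. Most members that passed 2-fold were therefore not set apart by the hnRNP-H array. Counts with B5 or D6 alone apart are not given here.

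The members in which hnRNP-H alone was high were few and mostly dim. Sgip1, an endocytic adaptor, was the exception: it read 4998 with hnRNP-H, 1332 with empty vector, 774 and 2173 in B5 and D6, and 107 in A20. All 4 AxJ arrays lay well above A20. A brighter member that carries the Sgip1 symbol together with others ran the other way, so the direction for Sgip1 is uncertain. That brighter member read 8692 in A20, and its probes may also match related transcripts. Ssr3, a subunit gene of the translocon-associated protein complex, read 215 with hnRNP-H, 69.5 with empty vector, and 50.7 and 93.1 in B5 and D6. The 2 other Ssr3 probe sets, which were brighter, gave -0.11 and -0.37. H2-DMa, which loads peptides onto class II molecules, read 115 with hnRNP-H, 49.8 with empty vector, 36.2 and 38.3 in B5 and D6, and 428 in A20. Csnk1d, Tcf25, Nudt4 and Anp32e read 106 to 119 in hnRNP-H and 56.7 or less on the other AxJ arrays. Brighter Csnk1d probe sets gave 0.51 and 1.04, and those of Nudt4 and Anp32e gave 0.24 and -0.70. A brighter Tcf25 probe set read 153 with hnRNP-H, 42.6 with empty vector, and 80.7 and 115 in B5 and D6, so hnRNP-H was not alone there. Napa, a factor of vesicle fusion, came next at just under 2-fold: 1112 with hnRNP-H, 389 with empty vector, and 554 and 558 in B5 and D6.

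On the low side 2 translation genes stood out. The elongation factor gene Eef1a1 read 3641 with hnRNP-H, 10359 with empty vector, 16709 and 13081 in B5 and D6, and 11691 in A20, a difference of -1.51. The hnRNP-H array was lower than all 4 others. The ribosomal protein gene Rpl41 read 164 in hnRNP-H and 518 in empty vector but 24275 in B5, 16541 in D6 and 14165 in A20. Both arrays compared here were far below the 3 others, which ranged over less than 2-fold among themselves. Adh7 read 35.9 and 124 with 103 and 119 in B5 and D6, Prp2 21.0 and 188 with 165 and 139, and Zfp787 32.1 and 100.1 with 113 and 100.4. The member that carries Sgip1 among several gene symbols read 6458 with hnRNP-H, 13114 with empty vector, and 19084 and 14381 in B5 and D6. Gadd45b, a stress-induced gene, was just short of 2-fold against D6, with 176 with hnRNP-H, 488 with empty vector, and 688 and 341 in B5 and D6. Its brightest probe set is the one given here, and a dimmer one gave -0.17.

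**Figure D3:**
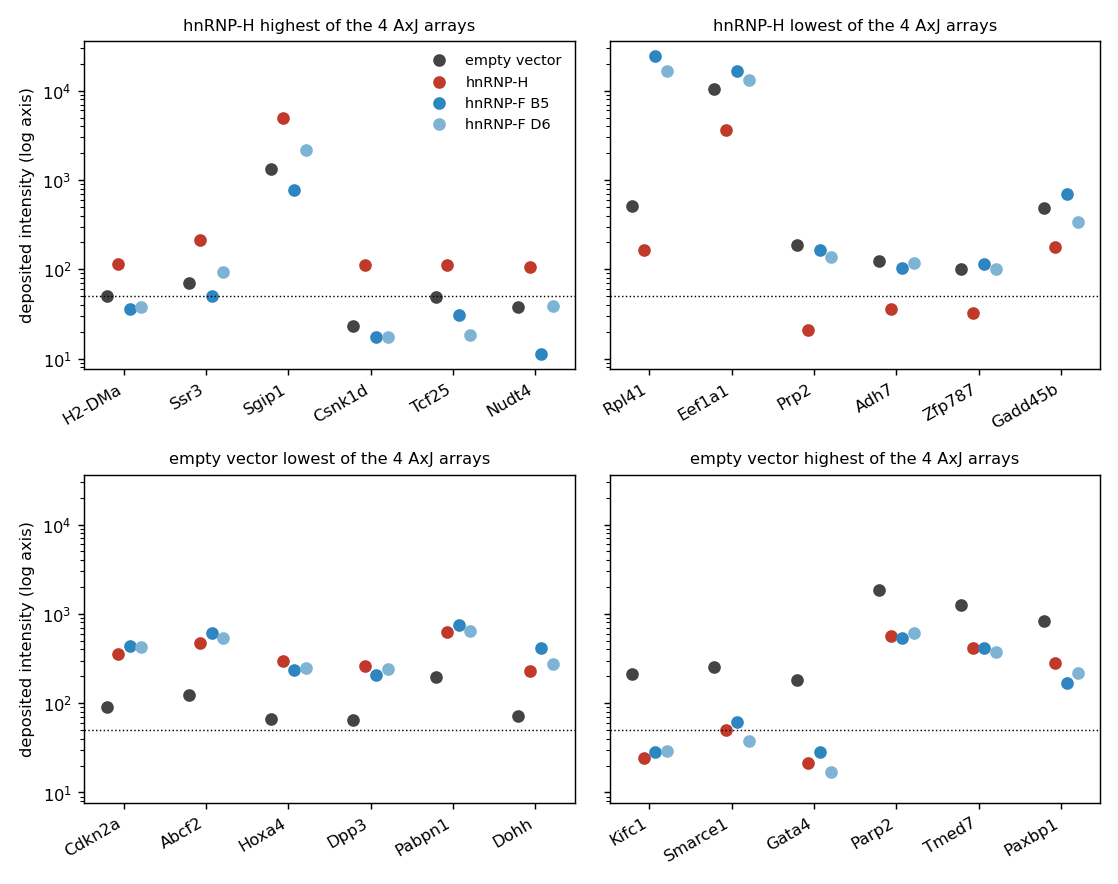
Deposited intensity (log axis) on the 4 AxJ arrays for genes chosen because 1 array stood apart, 1 point per array; the dotted line is the floor of 50. The upper panels show genes with hnRNP-H highest or lowest, the lower panels genes with empty vector lowest or highest; by the way they were chosen, the lower panels have the hnRNP-H, B5 and D6 points on one side of empty vector.

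The next genes were chosen because the empty-vector array stood apart from the 3 others, so the other arrays lie on one side of it by choice. Cdkn2a, which encodes the cell cycle inhibitors p16INK4a and p19ARF, read 91.6 with empty vector, 352 with hnRNP-H, and 439 and 423 in B5 and D6. Pabpn1, the nuclear poly(A)-binding protein, read 196 with empty vector, 624 with hnRNP-H, and 751 and 642 in B5 and D6. For both, every overexpressing line lay at least 3-fold above empty vector. Empty vector was also lowest for Abcf2, Hoxa4, Dpp3, Dohh, Samd4b and Prcc. For Hoxa4, Dpp3 and Samd4b the hnRNP-H array was the highest of the 4. With empty vector highest, Cip2a, an inhibitor of protein phosphatase 2A, read 644 with empty vector, 220 with hnRNP-H, and 98.8 and 141 in B5 and D6. Empty vector was also highest for Kifc1, Smarce1, Gata4, Parp2, Tmed7, Paxbp1 and C330007P06Rik.

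The groups of arrays with similar control ratios also shared members. Beside Pdia6, Ighm, Tbl3, Men1, Rhog and Eif4ebp2, the members with hnRNP-H and D6 high included Atm, the DNA-damage kinase, with 84.5 with empty vector, 230 with hnRNP-H, and 20.7 and 178 in B5 and D6. The retinoid X receptor gene Rxrb read 222 with empty vector, 516 with hnRNP-H, and 208 and 620 in B5 and D6. Nsdhl, a sterol synthesis enzyme, read 110 with empty vector, 367 with hnRNP-H, and 116 and 239 in B5 and D6. By that choice the high arrays were the ones with Gapdh 5' to 3' ratios of 0.866 and 0.683, and the low ones had 0.212 and 0.181. The part of these ratios in the differences was not tested. Gpaa1, Pef1, Pcp4l1, Arhgef1, Dlst, Rraga, Rangap1, Gnb1, Ccnt1, Pla2g6, Mrps18a and Add1 had the same order.

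D6 against B5 gives the size of differences between 2 lines that carry the same construct, and it shares no array with the main comparison. Over the 4504 members, 167 (3.71%) were at least 2-fold apart, 109 higher in D6 and 58 lower, with an SD of 0.44 against 0.63 for hnRNP-H over empty vector. Of the 507 members past 2-fold between hnRNP-H and empty vector, 42 (8.28%) were past 2-fold in the same direction between D6 and B5, 33 higher and 9 lower. A further 3 and 4 were past 2-fold in opposite directions. Over all members the differences of the 2 pairs had a Pearson r of 0.21 and a Spearman rho of 0.19, a description across probe sets that are not independent, and both pairs run from a low to a high control ratio. The median D6 minus B5 difference was 0.28 over the members higher in hnRNP-H and -0.05 over those lower. Array against array, the same members were at least 2-fold apart in 668 cases (14.8%) for empty vector and B5, 614 (13.6%) for empty vector and D6, 277 (6.15%) for hnRNP-H and B5, and 74 (1.64%) for hnRNP-H and D6. These members were chosen on the empty-vector and hnRNP-H arrays. The correlation of log2 intensity was 0.913 for hnRNP-H with empty vector, 0.969 for hnRNP-H with D6 and 0.943 for hnRNP-H with B5. It was 0.961 for B5 with D6 and 0.901 for empty vector with D6. For empty vector with B5, the arrays with low control ratios, it was 0.902.

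**Figure D4:**
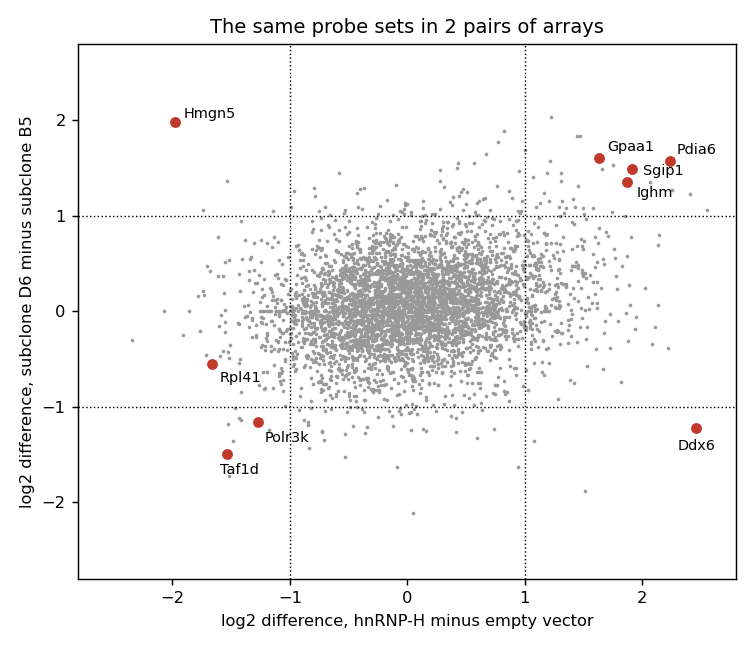
Log2 difference of hnRNP-H over empty vector (x) against that of D6 over B5 (y) for the 4504 members, 1 array per line; dotted lines mark 2-fold. Most members past 2-fold on the x axis lie within 2-fold on the y axis; Pdia6, Sgip1, Ighm and Gpaa1 are past 2-fold upward in both pairs, Taf1d and Polr3k downward, and Hmgn5 and Ddx6 in opposite directions.

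Gene groups were read with 1 probe set per gene, the brightest, which left 3621 genes: 255 (7.04%) at least 2-fold higher, 137 (3.78%) lower and a median of 0.02. The counts of each list are set beside these shares. Between D6 and B5, 118 of these genes (3.26%) were at least 2-fold apart. RNA-processing genes, the group hnRNP-H belongs to, are given first. Of 41 splicing factors, 5 were at least 2-fold higher and none lower, with a median of 0.06. Prpf19, the core of a spliceosome activation complex, read 180 and 551 (1.61), the small nuclear ribonucleoprotein gene Snrpd3 64.7 and 198 (1.61), Sf3b1 of the U2 particle 423 and 1037 (1.29) and Acin1 161 and 344 (1.10). Another Sf3b1 probe set read 459 and 322 (-0.51). Prpf19 and Snrpd3 also stood above empty vector in B5 (485 and 171) and in D6 (601 and 182). Of 15 cleavage and polyadenylation genes, only Pabpn1 (1.67) passed, and the median was 0.05. Of 23 other hnRNP genes, 20 (87.0%) had negative differences, against 49.0% of all genes, and the median was -0.29. Only 1 passed 2-fold: Raly, read at 29.0 and 142, was at least 2.83-fold higher. The median of these 23 genes was 0.33 for hnRNP-H over B5, 0.10 for hnRNP-H over D6 and 0.60 for empty vector over B5. By these medians hnRNP-H was not the low AxJ array. The median was 0.25 in D6 against B5.

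Transcription elongation genes held 4 higher and 1 lower of 20, with a median of 0.39. Ctr9, of the PAF1 complex, read 102 and 245 (1.26). Ccnt1, the cyclin of P-TEFb, read 89.6 and 201 (1.16), and Mllt1, of the super elongation complex, 65.2 and 146 (1.16). Mllt3, a close relative of Mllt1, went the other way with 127 and 57.0 (-1.16). For Ccnt1 and Mllt1 the high arrays were hnRNP-H and D6, since B5 read 91.1 and 81.0. Of 10 RNA polymerase II subunits, Polr2e (1.04) passed, and the median was 0.25.

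In the secretory pathway, the folding and quality-control genes held 3 higher and 1 lower of 25, with a median of 0.12. Pdia6 gave 1.11 at its brightest probe set, the retrotranslocation gene Derl2 1.11 and the disulfide isomerase Pdia3 1.07, while Selenos, of the same retrotranslocation machinery, gave -1.04. Of 45 genes of translocation and vesicle transport, 1 was higher, the GTPase gene Arf1 with 1824 and 4117 (1.17), and 1 lower, the translocon gene Sec62 with 210 and 96.1 (-1.13). The stress response list held 2 higher and 1 lower of 21, with a median of 0.32. These were the transcription factors Atf5 (1.39) and Xbp1 (1.31), and Gadd45b (-1.47). Heat shock genes and chaperonins lay mostly below 0, 17 of 23 (73.9%, against 49.0% of all genes), with a median of -0.34. Their median was -0.04 for hnRNP-H over D6, 0.02 for hnRNP-H over B5 and 0.20 for empty vector over B5. By these medians hnRNP-H lay close to B5 and D6. Both extremes of this list were large: the co-chaperone gene Stip1 read 132 and 474 (1.85), and the chaperonin subunit gene Cct8 read 1140 and 513 (-1.15). Sterol and fatty acid genes held 1 of 18 past 2-fold, Nsdhl (1.74), with a median of 0.19.

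Lists of B-lineage and antigen presentation genes were short. The plasma cell list held 2 higher of 8, Pim2 and Xbp1, and a median of 0.10. The B cell list held 1 higher and 1 lower of 13. Btk, the kinase of B cell receptor signalling, read 71.3 with empty vector, 192 with hnRNP-H, and 103 and 219 in B5 and D6 (1.43). The CD20 gene Ms4a1 read 117, 56.9, 116 and 58.2 on these arrays (-1.04), against 2212 in A20. Both genes set hnRNP-H with D6. Of 4 class II genes, 2 were higher: H2-DMa (1.21), which reached 100 on the hnRNP-H array only, and Cd74, the invariant chain, with 1327 and 2907 (1.13). The 2 others were Ifi30 (0.04) and Ctss (-0.65). The class II median of 0.59 was 0.13 with a floor of 100. It was 0.04 with members of at least 50 and with members of at least 200. Of 12 class I genes, 1 was higher, Pdia3, which also serves in the peptide-loading complex, and the median was -0.13, on the other side of all genes under quantile or loess scaling and with probe sets whose names have no letter suffix. The NF-kB list had a median of 0.44 over 11 genes and 1 call, its subunit gene Rela with 305 and 751 (1.30). That median was 0.14 with a floor of 100, 0.18 with members of at least 50 and 0.08 with members of at least 200. The immediate early list of 9 had no call and a median of 0.30, its largest values being those of Dusp2 (0.87) and Btg2 (0.75). Of 2 interferon-response genes measured, Ifi35 (1.11) passed, and of 4 cytokine and receptor genes none, with Il10 at 0.89 and Ccl22 at -0.62.

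Growth genes differed without a common direction. Of 41 cell cycle genes, 4 were higher and 1 lower, with a median of 0.03. Beside Cdkn2a (1.94), the Myc-network repressor Mxd4 read 261 and 673 (1.36) and the helicase subunit gene Mcm7 239 and 525 (1.14). Cdkn1a, the inhibitor p21, read 43.8 and 114, at least 2.27-fold higher. The kinesin gene Kif20a was lower. None of 15 apoptosis genes passed 2-fold at the brightest probe set, with Bcl2l1 at 0.93. Glycolysis genes also held no call among 16, the extremes being Pfkl (0.79) and Bnip3 (-0.78), a hypoxia-induced gene. Of 26 translation factors, Eef2 was higher and Eef1a1 lower. Eef2 read 995 with empty vector, 2660 with hnRNP-H, 1918 and 3614 in B5 and D6, and 3521 in A20 (1.42). For Eef2, which moves the ribosome, empty vector was the lowest array and hnRNP-H lay below D6 and A20. For Eef1a1, which brings tRNA, hnRNP-H was the lowest array. The actin and tubulin list held 2 higher and 2 lower of 27. Cfl1, the actin-severing protein cofilin, read 1291 and 2885 (1.16), and Arpc4, of the ARP2/3 complex, 271 and 577 (1.09). The tubulin gene Tubb6 gave -1.08. Actb gave -1.04 at its brightest ordinary probe set, whereas the maker's 3' control for the same transcript gave 0.63.

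Among housekeeping lists, those of the ribosome and the respiratory chain had medians below 0. So did histones (-0.30), redox and metallothionein genes (-0.25) and the mitochondrial ribosome (-0.02), while the proteasome list had 0.02. Ribosomal protein genes had 18 of 22 below 0 (81.8%, against 49.0% of all genes), a median of -0.37 and 1 call, Rpl41. This list lay at -0.43 in D6 against B5, and its direction relative to all genes turned when intensity-dependent scaling (quantile or loess) was used. Respiratory chain genes held none higher and 5 lower of 58, with a median of -0.11. Uqcrb, of complex III, read 2358 and 882 (-1.42), the cytochrome oxidase gene Cox7b 2708 and 1083 (-1.32), and Cox6b1, at 108 and 44.8, was at least 2.15-fold higher in empty vector. Atp5k and Atp5j, of ATP synthase, gave -1.08 and -1.07. In D6 against B5 this list likewise held none higher and 4 lower, with a median of -0.32. The mitochondrial ribosome list held 3 higher and 1 lower of 53 (Mrpl4 1.18, Mrps18a 1.07, Mrpl34 1.03, Mrps25 -1.33), and the proteasome list 1 and 1 of 43 (Psmd13 1.61, Psmg1 -1.12). The redox and metallothionein list of 18 held 1 lower, the ferritin gene Fth1 with 6770 and 2299 (-1.56), though another Fth1 probe set gave 0.24. Of 7 histone genes, H3c14 (-1.52) was lower. Among marker lists of other cell types, 5 genes were members: Cd68 (1.09), Cd14 (-0.07), Col1a2 (-0.21), Hba-a1 (-0.68) and Ank1 (-0.29).

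**Figure D5:**
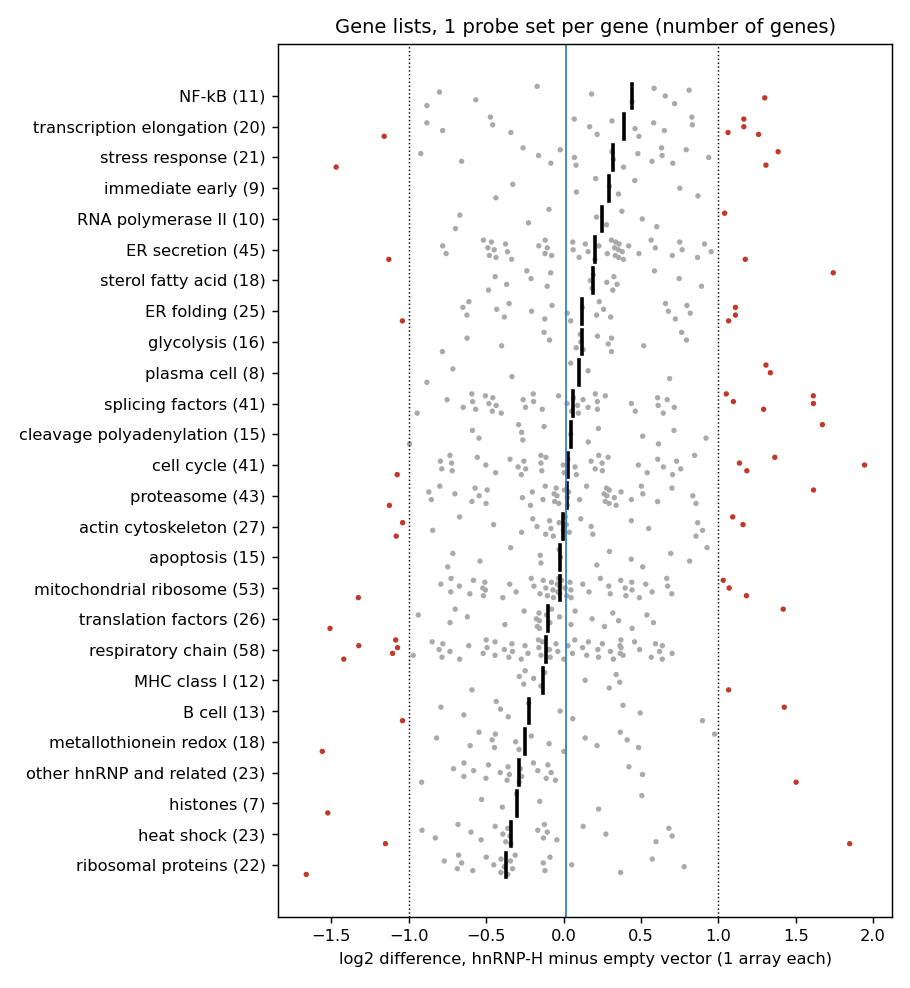
Log2 difference of hnRNP-H over empty vector for the member genes of each list with at least 7 of them, 1 point per gene from its brightest probe set and 1 array per line; black bars mark list medians, the vertical line the median of all 3621 genes (0.02), dotted lines 2-fold, and red points lie past it. List medians run from -0.37 (ribosomal proteins) to 0.44 (NF-kB), inside the 2-fold lines; lists differ in whether single genes lie past 2-fold on both sides, on one side or not at all.

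Several probe sets of one gene measure it again on the same 2 arrays. Of 397 genes with more than 1 member probe set, 218 (54.9%) had all of them on one side of 0, and the median spread within a gene was 0.57. A spread of at least 1 was seen in 106 genes. Of 99 such genes with at least 1 probe set past 2-fold, 44 had another of opposite sign, and 7 had every member probe set past 2-fold in 1 direction. These repeats lie on the same 2 arrays and do not repeat the cultures. On the high side, Bag6, a chaperone of tail-anchored proteins, gave 1.11 to 1.58 at 3 probe sets, and the kinase gene Pim1 1.10 and 1.31. The mitochondrial enzyme gene Dlst gave 1.29 and at least 1.41, and Tcf25 at least 1.16 and at least 1.61. In these bounds empty vector was under 50. On the low side, Taf1d, a subunit gene of the RNA polymerase I factor SL1, gave -1.53, -1.52 and, as a bound with hnRNP-H under 50, -1.42. The RNA polymerase III subunit gene Polr3k gave -1.27 and -1.18, and the zinc transporter gene Slc30a5 -1.43 and -1.30. The brighter Polr3k probe set read 812 with empty vector, 336 with hnRNP-H, and 943 and 422 in B5 and D6. For Krtcap2 and Prp2 the probe sets were past 2-fold in opposite directions, -1.04 and 1.01 for Krtcap2 and -1.91 and 1.14 for Prp2. Among the genes named above for a value past 2-fold, a member probe set of the opposite sign was also found for Anp32e, Csnk2a1, Fth1, H2-D1, Macroh2a1, Mrps18a, Mrps25, Pdia6, Plk1, Sac3d1, Sf3b1, Ssr3 and Zfp787. For Eif4ebp2 the brighter probe set gave 0.03 and for Tbl3 0.38.

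The kind of probe set mattered as well. The maker's suffix f marks probe sets whose probes may also match related transcripts. The 370 members of this kind held 10 higher (2.70%) and 54 lower (14.6%), with a median of -0.39, and supplied 28.7% of all lower members. The 3661 members without a letter suffix held 263 higher (7.18%) and 102 lower (2.79%), with a median of 0.04. The low values given for Rpl41, Kifc1, Tmed7, H2-D1, Uqcrb, Sart3, Sac3d1, Tubb6, Actb, Gadd45b, Mrps25, Zfp787, C330007P06Rik and Plk1 came from f probe sets, as did 1 of the 3 for Taf1d. So did the low value of Krtcap2 and that of the member with Sgip1 among several symbols. All of these may include related transcripts. Why this kind lay lower was not tested.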

How the data were processed

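Polyadenylated RNA of 5 mouse cultures was selected on oligo dT, labelled with biotin and hybridised to 1 Affymetrix array each, per the labels' protocols. The deposited table gives 1 linear intensity per probe set and array, scaled by the authors to a 2% trimmed mean near 150 per array, as the values show. For the software, the background step and detection calls, nothing is given in the sources used here, so depth cannot be stated and the number of arrays limits the precision. Array medians ran from 33.8 to 41.7.

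Of 12488 probe sets, 66 maker's controls were set aside. Symbols came from the 2016 array annotation: 10855 probe sets had 1, 396 several and 1237 none; 10839 were updated through gene identifiers and 16 kept. The deposited scaling was kept, values under 50 were raised to 50, and a difference is log2 of the ratio, called at 2-fold. A gene's brightest probe set by the mean of both arrays stood for it in lists. No p-value was computed.

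Named were, among members with 1 symbol: the 15 highest and 15 lowest with both values at least 50; the 8 brightest each way with 1 value under 50; the 8 each way with hnRNP-H, or empty vector, farthest from the other AxJ arrays; up to 4 genes past 2-fold per list, otherwise 2; and fixed genes of the hnRNP-H and immunoglobulin systems. Genes named for repeated probe sets, for a split with D6, and the snoRNA host genes were chosen after their values were seen. The members, lists and rules were chosen with earlier results of these data known. The 34 lists hold textbook genes.

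Computation used Python 3.11.15, pandas 2.3.3, numpy 2.4.6 and statsmodels 0.14.6. The fold calls were tried on simulated data, with planted changes in bright probe sets that were larger than most calls here. The simulated noise was also smaller than the spread over members, so that trial does not bear on the smaller or dimmer calls. Alternatives were another floor, a pseudocount, median, quantile or loess scaling, other member limits, all probe sets of a list, and, added after seeing the data, probe sets without a letter suffix.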

Additional observations from a re-analysis of the deposited data

Results flagged for a closer look

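The 18S ribosomal RNA control probe sets, which enter no comparison, were brightest on the hnRNP-H array. They read 278 at the 5' end, 294 in the middle and 316 at the 3' end there. On the empty-vector array the same probe sets read 28.0, 8.91 and 114. B5 read 88.3, 78.2 and 220, D6 36.5, 43.7 and 112, and A20 72.6, 71.9 and 162. The hnRNP-H array was thus above all 4 others at each position. Whether this went with any member's difference was not tested.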

How the results depend on the processing

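Each value comes from 1 array per line, so no setting can supply the missing spread between cultures. No paired analysis was possible because each line has 1 array and the result comes from no test. The 319 higher members became 188 with a floor of 100 and 188 with members of at least 200. The 188 lower members became 115 with a floor of 100, 115 with median scaling, 115 with members of at least 200 and 102 with suffix-free probe sets. The median of 0.02 became 0.16 with median scaling. The D6 against B5 count of 167 became 99 with the floor of 100 and 93 with members of at least 200. The 8.28% shared with D6 against B5 became 5.64% with loess scaling. The 14 members with hnRNP-H alone became 6 with the floor of 100, 6 with members of at least 200 and 7 with suffix-free probe sets, and the 189 with empty vector alone became 118 with the floor of 100. No gene value that was called changed sign, but some list medians did. The ribosomal protein median turned positive with quantile normalisation (0.11), and the class I median with suffix-free probe sets (0.17). The B cell median turned positive with members of at least 200 and with suffix-free probe sets (0.06 each). The cytokine median turned negative with members of at least 50 (-0.27). Of 161 gene and list values, 42 moved with the floor of 100, 11 with a floor of 25, 11 with none, 2 with quantile and 1 with loess scaling. Of 29 list medians, 4 moved with members of at least 200, 3 with members of at least 50 and 2 with suffix-free probe sets. List medians relative to all genes turned for B cell, class I, cell cycle, apoptosis, cytokine, ribosomal protein and proteasome genes under at least 1 setting.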

Other observations

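Noncoding host genes of small nucleolar RNAs, transcripts whose introns carry guide RNAs for ribosomal RNA modification, were among the bright members that were lower in hnRNP-H. This group was put together after its values were seen, so it has no test. Gas5, Snhg1, Snhg5, Snhg6 and Taf1d, a coding gene that also hosts such RNAs, had 8 member probe sets, all lower in hnRNP-H and 6 of them at least 2-fold, against 4.17% of all members. Snhg11, also on the array, was no member. Snhg1 read 3410 with empty vector, 1570 with hnRNP-H, 1516 and 1233 in B5 and D6, and 329 in A20, a log2 difference of -1.12. The brighter Gas5 probe set read 4527 with empty vector, 2029 with hnRNP-H, 2055 and 1601 in B5 and D6, and 523 in A20, a difference of -1.16. Snhg5 read 535 with empty vector, 234 with hnRNP-H, 175 and 181 in B5 and D6, and 82.8 in A20, a difference of -1.19. For these 3 genes the empty-vector array was the high one, and hnRNP-H lay near B5 and D6. Snhg6 was closer to the others, with 200.3 with empty vector, 122 with hnRNP-H, and 139 and 105 in B5 and D6, a difference of -0.72. Taf1d differed between D6 and B5 as well: its brightest probe set read 5296 with empty vector, 1843 with hnRNP-H, and 2287 and 1010 in B5 and D6.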
